A study of Gallus gallus with 9 samples.

Results

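The retinal pigment epithelium (RPE) is the pigmented cell layer behind the neural retina. The genes described here are those whose level in it differed after removal of the retina alone. Attention is given to those that stood near their intact level when fibroblast growth factor 2 (FGF2) was also given. RNA of laser-captured RPE from White Leghorn chicken embryos was compared among t-rRPE, rRPE and RPE. The t-rRPE libraries (transiently reprogrammed RPE) came from embryonic day 4 eyes 6 h after retinectomy with no FGF2. The rRPE libraries (reprogrammed RPE) came from eyes 6 h after retinectomy in which an FGF2-soaked bead had been placed in the eye cup, and only the RPE close to the bead was captured. The RPE libraries came from intact eyes at embryonic day 4. There were 9 embryos, 3 in each group, and no group with a bead lacking FGF2 was analysed here. Levels in t-rRPE were set against the mean of rRPE and RPE, each weighted 0.5, for the 16535 of 16635 genes whose normalized counts summed to 20 or more over the 9 libraries. In captured tissue, fewer cells of a type and less RNA per cell cannot be told apart.

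FGF2 is a secreted ligand of receptor tyrosine kinases and acts largely through the mitogen-activated protein kinase (MAPK) cascade. In the embryonic chick, RPE that has lost the neural retina can be turned into new neural retina when a source of FGF2 is placed in the eye, whereas without that source the RPE does not complete this change. MAPK signalling induces its own inhibitors, promotes entry into the cell cycle and can repress transcription factors that keep RPE pigmented.

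The values are read counts per gene divided by a size factor of each library (normalized counts), and differences are given on the log2(normalized count + 1) scale with their SE. A gene counted as called if its log2 fold change in limma was 1 or more in size and its Benjamini-Hochberg adjusted p was 0.05 or less. The distance of rRPE from RPE was read from the same fit. A gene with rRPE within 0.5 of RPE on the log2 scale was described as near intact, one with rRPE displaced by more in the direction of t-rRPE as part of the way, and one displaced by more in the other direction as past intact. In this balanced design the distance between rRPE and RPE is orthogonal to the difference of t-rRPE from the mean of rRPE and RPE, so that the place of rRPE is not fixed by that test.

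Libraries held 26167206 to 45563924 reads on genes, and 13327 to 14077 genes had at least 1 read in a library. The captured tissue carried the defining transcripts of RPE in every library, with *DCT* (dopachrome tautomerase) at 61128 to 84903 in t-rRPE, 43855 to 74004 in rRPE and 64209 to 72243 in RPE, and *TYR* (tyrosinase) at 62862 to 70660.0 in t-rRPE, 47336 to 71888 in rRPE and 63704 to 87215 in RPE. Within groups the spread was wider in t-rRPE, with a median SD of 0.43 on the log2 scale over 10724 genes with a mean normalized count of at least 100, against 0.34 in rRPE and 0.33 in RPE. The summed level of 10 erythroid markers was 149920.0 to 393456 in t-rRPE, 216897 to 539837 in rRPE and 281606 to 432304 in RPE, that of 10 leukocyte markers 1338 to 2491 in t-rRPE, 1031 to 1750.5 in rRPE and 1346 to 1694 in RPE, and that of 18 neuron markers 21194 to 25022 in t-rRPE, 20106 to 23232 in rRPE and 17229.7 to 22195 in RPE, with overlap among the groups in each. All 10 erythroid markers had a lower mean log2 level in t-rRPE than in the mean of rRPE and RPE, 2 of them with an unadjusted p up to 0.05 (median -0.67, and -1.08 without t-rRPE replicate 2 and -0.39 without t-rRPE replicate 1), and 9 of the 10 had rRPE within 0.5 of RPE. The part of blood in the genes described below was not tested. Transcripts of the W chromosome split the libraries across the groups. *HINTW* stood at 147356 in t-rRPE replicate 1 and at 0 in the other two t-rRPE libraries, at 0 in all 3 libraries of rRPE, and at 102583 to 128872 in RPE. The presence of a W chromosome and the difference between rRPE and RPE therefore cannot be told apart. The W chromosome was also unevenly spread between t-rRPE and RPE. The 503 tested genes matched by symbol to chromosome Z of the GRCg7b annotation had a median rRPE minus RPE of 0.66 on the log2 scale, against -9.41e-05 over 10349 genes on other chromosomes. Of the 19 genes called or near intact, 16 were matched and 0 of these lay on chromosome Z.

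Against RPE, 111 genes of t-rRPE were called (0.671% of the genes tested), of which 59 were higher (0.357%) and 52 lower (0.314%). The sample labels give no hour of collection for the intact eyes, so passing time and retinectomy cannot be told apart. For 8 of these 111 genes (7.21%) rRPE was within 0.5 of RPE, against 50.6% of all genes tested, and for the other 103 it was farther away. These 2 differences use the same RPE libraries. Of all genes tested, 170 (1.03%) were called in rRPE against RPE. The 8 genes were *AFAP1L1*, *BEND3*, *ORC6*, *PALD1*, *PODXL* and a gene without a symbol, which fell in t-rRPE, and *TESC* and *PLBD2*, which rose. They were chosen after their values were seen. In the test of t-rRPE against the mean of rRPE and RPE, 11 genes were called (0.0665%), 3 higher (0.0181%) and 8 lower (0.0484%), and 0 of the 11 were near intact by limma. Among these 11, 9 stood part of the way in rRPE and 2 stood past intact. At an unadjusted p up to 0.05 there were 1692 genes (10.2%), and rRPE was near RPE for 868 of these (51.3%), a share close to that of all genes.

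These counts stood close to the threshold. All 11 genes shared the adjusted p of 0.0486, and the next gene, *AFAP1L1*, had 0.0511. A count model of the recovered reads in DESeq2, the tool of the study, called 301 genes in the same contrast, among them all 11, and 72 of the 301 (23.9%) were near intact by its own estimate. Of those 72 genes, 22 were higher and 50 lower in t-rRPE, and in 48 of them the t-rRPE libraries lay outside all 6 others. The quasi-likelihood test of edgeR called 3 genes, 0 of them near intact. Without rRPE replicate 1, rRPE replicate 2 or t-rRPE replicate 3 the limma count was 0. It was 1 without RPE replicate 2, 2 without RPE replicate 3 or rRPE replicate 3, 4 without RPE replicate 1, 11 without t-rRPE replicate 1 and 16 without t-rRPE replicate 2. The count of 8 near-intact genes moved likewise, to 0 without any one of the 3 RPE libraries, 2 without rRPE replicate 1 or t-rRPE replicate 3, 3 without rRPE replicate 2, 4 without t-rRPE replicate 1, 7 without rRPE replicate 3 and 23 without t-rRPE replicate 2.

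*AFAP1L1*, an adaptor protein of actin filaments, had the largest fall of the 8 genes near intact in rRPE. Its normalized counts were 126, 328 and 151 in t-rRPE, 1391, 725 and 1291 in rRPE and 848, 939 and 1322 in RPE. The t-rRPE libraries lay below all the others, while rRPE and RPE overlapped. The difference of t-rRPE from RPE was -2.46 ± 0.44 on the log2 scale (adjusted p = 0.0355), and rRPE minus RPE was 0.10 (95% interval -0.87 to 1.07). Against the mean of rRPE and RPE the difference was -2.51 ± 0.38.

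*BEND3*, which encodes a chromatin-bound repressor of transcription, stood at 326, 385 and 381 in t-rRPE, 709.6, 1269 and 1207 in rRPE and 1479, 964 and 1096 in RPE. Its t-rRPE libraries were close together and all under the lowest of the others, and rRPE overlapped RPE. The fall from RPE was -1.67 ± 0.33 (adjusted p = 0.0494), with rRPE minus RPE at -0.17 (95% interval -0.90 to 0.55). *ORC6*, a subunit of the origin recognition complex that marks the sites where DNA replication begins, stood at 1420.4, 776 and 868 in t-rRPE, 1695, 2120.3 and 1925 in rRPE and 2643, 2966 and 2306 in RPE. Its 3 groups did not overlap, with rRPE between t-rRPE and RPE, and rRPE minus RPE of -0.46 (95% interval -1.03 to 0.11) was near the edge of the margin. The fall of t-rRPE was -1.41 ± 0.26 (adjusted p = 0.0396).

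*PODXL* encodes podocalyxin, a sialomucin of apical and endothelial cell surfaces. It stood at 2898, 2272 and 3103 in t-rRPE, 4258, 6897 and 5250.4 in rRPE and 5460.3, 5909 and 6418 in RPE, so that each t-rRPE library lay under each of the others. The difference of t-rRPE from RPE was -1.11 ± 0.20 (adjusted p = 0.0396) and rRPE minus RPE was -0.14 (95% interval -0.59 to 0.31). *PALD1*, which encodes paladin, a protein with phosphatase domains, stood at 2432, 3587 and 2324 in t-rRPE, 5188, 3827 and 4077 in rRPE and 4799, 6846 and 6787 in RPE. Its highest t-rRPE library came close to its lowest rRPE library, and its rRPE minus RPE of -0.49 was the closest of the 8 to the margin of 0.5. The gene without a symbol stood at 509, 488 and 572 in t-rRPE, 1209, 990.2 and 1037 in rRPE and 1409.8, 1282 and 1372 in RPE, with no overlap among the groups and a fall of -1.37 ± 0.25 from RPE (adjusted p = 0.0396).

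*PODXL* and *PALD1* are both also expressed in vascular endothelium, and the summed level of markers of that tissue was lower in t-rRPE and rRPE than in RPE. It came to 5392 to 8153 in t-rRPE, 7089 to 7336 in rRPE and 10152 to 19545 in RPE, over 19 markers, and the sums of t-rRPE and rRPE overlapped. The median of these markers was -1.74 for t-rRPE minus RPE and -1.57 for rRPE minus RPE. Of the 19, 3 were near intact in rRPE, against 50.6% of all genes tested. *PECAM1* stood at 1089 to 2679.8 in t-rRPE, 1972 to 2804 in rRPE and 1756 to 2325 in RPE, *CDH5* at 433 to 847 in t-rRPE, 402 to 654 in rRPE and 1858 to 3366 in RPE, and *TIE1* was at 0 in t-rRPE replicate 3. Their part in the levels of *PODXL* and *PALD1* was not tested.

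The rises among the 8 genes were *TESC* and *PLBD2*. *TESC* encodes tescalcin, a calcium-binding protein that associates with a sodium-proton exchanger. It stood at 3546, 6863 and 4667 in t-rRPE, 1903, 1701 and 2723 in rRPE and 1613, 1625 and 1849 in RPE, with every t-rRPE library above every other and rRPE overlapping RPE. Its rise over RPE was 1.52 ± 0.26 (adjusted p = 0.0343), and rRPE minus RPE was 0.29 (95% interval -0.29 to 0.87). *PLBD2*, a phospholipase B-like protein of lysosomes, stood at 3987, 2879 and 3227 in t-rRPE, 1890.3, 1783 and 2086 in rRPE and 1359.8, 1337 and 1715 in RPE. All 3 t-rRPE libraries exceeded the rest, and the rRPE libraries lay just above those of RPE, with a difference of 0.39 (95% interval -0.07 to 0.85) against a rise in t-rRPE of 1.19 ± 0.21 (adjusted p = 0.0343).

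In all 8 genes the t-rRPE libraries lay outside the range of the other 6 libraries, and the 95% interval of rRPE minus RPE lay wholly within 1 on the log2 scale for 6 of the 8, the exceptions being *AFAP1L1* and *ORC6*. Over all genes tested the libraries were so placed in 634 (3.83%), 316 with t-rRPE highest (1.91%) and 318 with t-rRPE lowest (1.92%), and the interval was so placed in 25.9%. The 8 genes were chosen by the same values, so nothing is read from these shares. None of the 8 passed the test of t-rRPE against the mean of rRPE and RPE, where their adjusted p ran between 0.0511 for *AFAP1L1* and 0.146 for *PALD1*, nor the direct test of rRPE against t-rRPE, which called 9 genes in all (0.0544%). DESeq2 called 7 of the 8 against the mean of rRPE and RPE, with *PALD1* under the fold change threshold at -0.90 on the log2 scale, and all 8 against RPE. The edgeR test called 2 of the 8 against RPE, *TESC* (adjusted p = 0.0449) and *PLBD2* (adjusted p = 0.0479). With each of the 9 libraries left out in turn, *TESC* kept its call against RPE in 3 fits, *AFAP1L1* in 2, *PLBD2*, *PODXL*, *ORC6* and *PALD1* in 1 each, and *BEND3* and the gene without a symbol in 0. The plot of the 8 genes by library shows how far the t-rRPE values stand from the other groups in each.

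**Figure D1:**
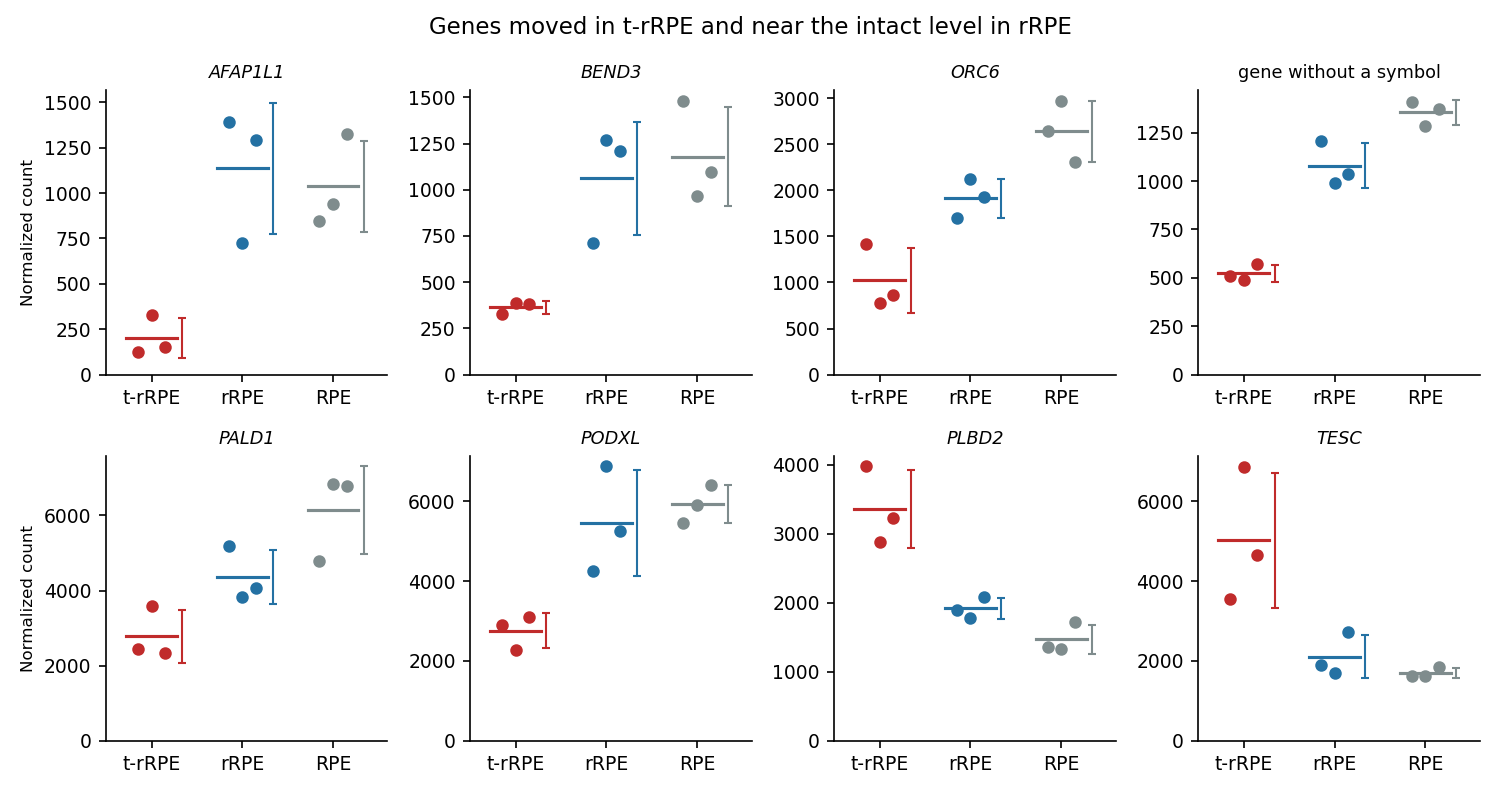
Normalized counts (vertical axis, linear) of the 8 genes called in t-rRPE against RPE with rRPE within 0.5 of RPE on the log2 scale. Points are libraries, horizontal lines group means and bars SD (n = 3). In every panel the 3 t-rRPE points lie beyond all 6 others. All rRPE points lie between the other groups for *ORC6*, *PLBD2* and the gene without a symbol.

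Over the whole table, the t-rRPE libraries lay above or below all others while rRPE was near RPE in 431 genes (2.61%), 200 with t-rRPE highest (1.21%) and 231 with t-rRPE lowest (1.4%). Most of these were small changes, since 288 of the 431 differed by less than 1 on the log2 scale and the median size was 0.71. Among the genes with a symbol and the lowest p in this set, beyond the 8 above, were *SMARCA5*, *ST6GALNAC5*, *WDR43*, *CIAPIN1*, *PDIA4*, *REEP1*, *TRIL*, *DDX42* and *CYTH1*, and none of these was called. This choice too followed the values.

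*SMARCA5*, the ATPase of ISWI chromatin remodellers, stood at 8669, 7087 and 9160.1 in t-rRPE, 14859.7, 14678 and 13796 in rRPE and 12328, 11607 and 13200.1 in RPE. Its difference from the mean of rRPE and RPE was -0.69 ± 0.12 (adjusted p = 0.0672). *WDR43*, a factor of ribosome biogenesis, had -0.68 and *CIAPIN1*, which serves the assembly of cytosolic iron-sulfur proteins, had -0.72. *DDX42*, an RNA helicase, was higher in t-rRPE by 0.68, and *CYTH1*, an exchange factor of ARF GTPases, and *REEP1*, which shapes the endoplasmic reticulum, had 0.67 for *CYTH1* and -1.23 for *REEP1*.

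*ST6GALNAC5*, a sialyltransferase, stood at 4681, 4390.0 and 4150.0 in t-rRPE, 1750.2, 1014 and 1965 in rRPE and 2664, 1713 and 2055 in RPE. The t-rRPE values were close together at about the same level and the other groups overlapped (log2 difference 1.30 ± 0.23, adjusted p = 0.0721). *DNM1*, the GTPase dynamin of endocytosis, stood at 1959, 2275 and 2029 in t-rRPE, 1066, 435 and 1215 in rRPE and 628, 688 and 797 in RPE (log2 difference 1.45 ± 0.32, adjusted p = 0.161). *BMF*, a pro-apoptotic member of the BCL2 family, stood at 4603, 2762 and 2602 in t-rRPE, 1645, 1018 and 2075 in rRPE and 1117, 1365 and 1551 in RPE (log2 difference 1.18 ± 0.27, adjusted p = 0.19). *DNM1* and *BMF* were taken from the genes that DESeq2 called, with an adjusted p of 0.00227 for *DNM1* and 0.00365 for *BMF* there, and are outside the limma calls.

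The genes called against the mean of rRPE and RPE show 3 forms of the pattern, described here for 10 of the 11, and the scatter of both differences sets them beside all genes tested. The first form is past intact, where retinectomy alone and retinectomy with FGF2 stood on opposite sides of intact RPE. *RGS10* encodes a regulator that shortens signalling by heterotrimeric G proteins. Its normalized counts were 227, 286 and 239.8 in t-rRPE, 2164, 1905 and 2299.8 in rRPE and 524, 1176 and 959.8 in RPE. The 3 groups did not overlap, with rRPE highest and t-rRPE lowest. Its difference from the mean of rRPE and RPE was -2.41 ± 0.30 on the log2 scale (adjusted p = 0.0486). For *RGS10*, rRPE minus RPE was 1.33 (95% interval 0.58 to 2.09) and not called (adjusted p = 0.104). *RGS10* was also the 1 gene called both in t-rRPE against RPE (-1.75 ± 0.34, adjusted p = 0.0494) and in rRPE against t-rRPE (3.08 ± 0.34, adjusted p = 0.0133), comparisons that share the t-rRPE libraries.

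ENSGALG00000003747, a gene without a symbol, was the other called gene past intact. It stood at 0 in all 3 libraries of t-rRPE, at 236, 306 and 278 in rRPE and at 17.3, 28.2 and 39.2 in RPE. Against a floor of 3 reads per t-rRPE library, its mean over the other 6 libraries was at least 38.6-fold higher, and rRPE minus RPE was 3.30 (95% interval 0.89 to 5.70). Its mean in RPE alone was at least 7.22-fold above that floor. Neither t-rRPE against RPE (adjusted p = 0.0939) nor rRPE against RPE (adjusted p = 0.225) was called for this gene. *SLC9A3R1*, a scaffold that ties membrane proteins to ezrin, had the same form and missed the threshold. Its t-rRPE minus RPE was -0.57 and not called (adjusted p = 0.417). It stood at 2104, 1412 and 2148 in t-rRPE, 6202, 11393 and 11492 in rRPE and 3193, 2380.1 and 2743 in RPE, with a difference from the mean of rRPE and RPE of -1.45 ± 0.23 (adjusted p = 0.0618) and rRPE minus RPE of 1.76 (adjusted p = 0.0131).

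**Figure D2:**
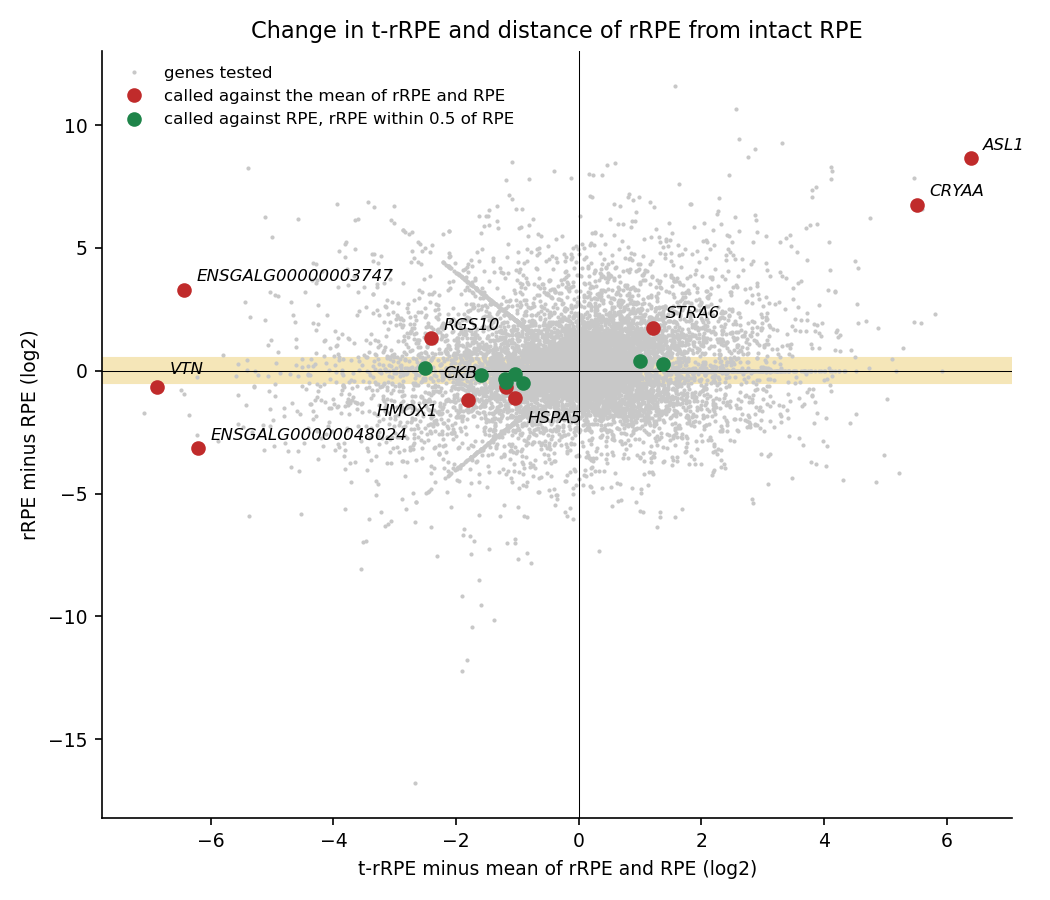
Difference of t-rRPE from the mean of rRPE and RPE (horizontal axis, log2) against rRPE minus RPE (vertical axis, log2) for the 16535 genes tested (grey). The 10 called genes described are red and named, the 8 near-intact genes called against RPE are green, and the band marks rRPE within 0.5 of RPE. No red point lies inside the band.

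The second form is a fall in t-rRPE with a smaller mean fall in rRPE. The direct test of rRPE against t-rRPE called 2 of the 11 genes, *RGS10* and ENSGALG00000003747. It called none of those given for the second form. Its adjusted p was 0.193 for *CKB*, 0.222 for *HMOX1*, 0.448 for *HSPA5*, 0.202 for ENSGALG00000048024 and 0.0987 for *VTN*. *CKB*, the brain-type creatine kinase that buffers cellular ATP, stood at 17924, 21028 and 17849.8 in t-rRPE, 35641, 47014 and 24534 in rRPE and 48497, 56529 and 56852 in RPE. The t-rRPE libraries lay below all the others and rRPE below RPE. Its difference from the mean of rRPE and RPE was -1.19 ± 0.17 (adjusted p = 0.0486), with rRPE minus RPE at -0.64 (95% interval -1.07 to -0.21), beyond the margin of 0.5 and within 1. *HMOX1*, the inducible heme oxygenase, stood at 643, 1135 and 573 in t-rRPE, 1268, 2310.4 and 1797 in rRPE and 3355, 4130.5 and 4325 in RPE, also with no overlap among the groups (difference -1.80 ± 0.27, rRPE minus RPE -1.17).

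*HSPA5*, the main chaperone of the endoplasmic reticulum, was lowest in t-rRPE without a full separation from rRPE. It stood at 10141, 16684 and 14958 in t-rRPE, 16659.7, 20386 and 20853 in rRPE and 36628, 43246 and 44266 in RPE. The highest t-rRPE library exceeded the lowest rRPE library, and both injured groups lay under RPE. The difference from the mean of rRPE and RPE was -1.05 ± 0.16 and rRPE minus RPE -1.10 (adjusted p = 0.0184). ENSGALG00000048024, without a symbol, stood at 0, 1.87 and 5.21 in t-rRPE, 109, 77.3 and 30.8 in rRPE and 443, 656 and 662 in RPE, with rRPE again between the other groups.

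*VTN* encodes vitronectin, an adhesive glycoprotein of matrix and serum that binds integrins. It stood at 0 in all 3 libraries of t-rRPE, at 101, 219 and 35.9 in rRPE and at 168, 101 and 187 in RPE, so that rRPE and RPE overlapped. The mean of those 6 libraries was at least 34.6-fold above the floor of 3 reads per t-rRPE library. Its rRPE minus RPE was -0.66, with a 95% interval of -3.18 to 1.86 that does not place rRPE near or away from intact. DESeq2 called *VTN* against the mean of rRPE and RPE (adjusted p = 1.62e-07) and put rRPE minus RPE at -0.36, near intact. The edgeR test with the authors' size factors did not call *VTN* (adjusted p = 0.0849). With a margin of 1 in place of 0.5, *CKB* and *VTN* counted as near intact. With each of the 9 libraries left out in turn, *ASL1* kept its call in 3 fits, *RGS10* and *CRYAA* in 2 each, *STRA6*, *CKB*, *HMOX1* and *HSPA5* in 1 each, and *VTN* and both genes without a symbol in 0.

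The third form is a rise in t-rRPE that rRPE shared in part. *STRA6*, the cell surface receptor for retinol-binding protein, stood at 19234, 12667 and 14802 in t-rRPE, 10603, 11291 and 14389.9 in rRPE and 4403, 3483 and 3081 in RPE. Both injured groups exceeded RPE and overlapped each other (difference of t-rRPE from the mean of rRPE and RPE 1.22 ± 0.17, rRPE minus RPE 1.73). For *STRA6*, rRPE against t-rRPE was -0.36 and not called (adjusted p = 0.62). Lens proteins behaved likewise at much larger size. *ASL1*, which in birds encodes delta-crystallin, stood at 39430.0, 332972 and 160226 in t-rRPE, 41516, 38876 and 17338 in rRPE and 13.5, 129.8 and 232 in RPE. *CRYAA*, the alpha-A crystallin, stood at 2647, 21424 and 12730.1 in t-rRPE, 2150.2, 3103 and 1256 in rRPE and 9.61, 64.9 and 8.45 in RPE. In both, t-rRPE replicate 1 lay within the range of rRPE, so that t-rRPE and rRPE were not separated, and rRPE against t-rRPE was not called (adjusted p = 0.537 for *ASL1* and 0.503 for *CRYAA*).

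Of 19 lens crystallins and filament genes, 17 lay higher in t-rRPE, 2 were called and 8 were higher with an unadjusted p up to 0.05, where 4.55% of all genes did. The summed level of 13 lens cell markers was 47800.4 to 403485 in t-rRPE, 22154 to 50496 in rRPE and 868 to 1492 in RPE. The lens-defining *CRYBB1* stood at 79.3 to 163 in t-rRPE, 86.7 to 205 in rRPE and 0 to 22.3 in RPE and *MIP* at 79.2 to 119 in t-rRPE, 19.3 to 156 in rRPE and 4.69 to 20.2 in RPE. Not all lens markers were so low in RPE. *BFSP2* stood at 183 to 966 in t-rRPE, 125 to 304 in rRPE and 75.3 to 825 in RPE. *CRYBA1* stood at 85.7 to 446 in t-rRPE, 232 to 353 in rRPE and 0 to 256 in RPE. For *BFSP2* and *CRYBA1*, RPE overlapped t-rRPE. The lens adjoins the eye cup, and the part of lens tissue in these levels was not tested.

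**Figure D3:**
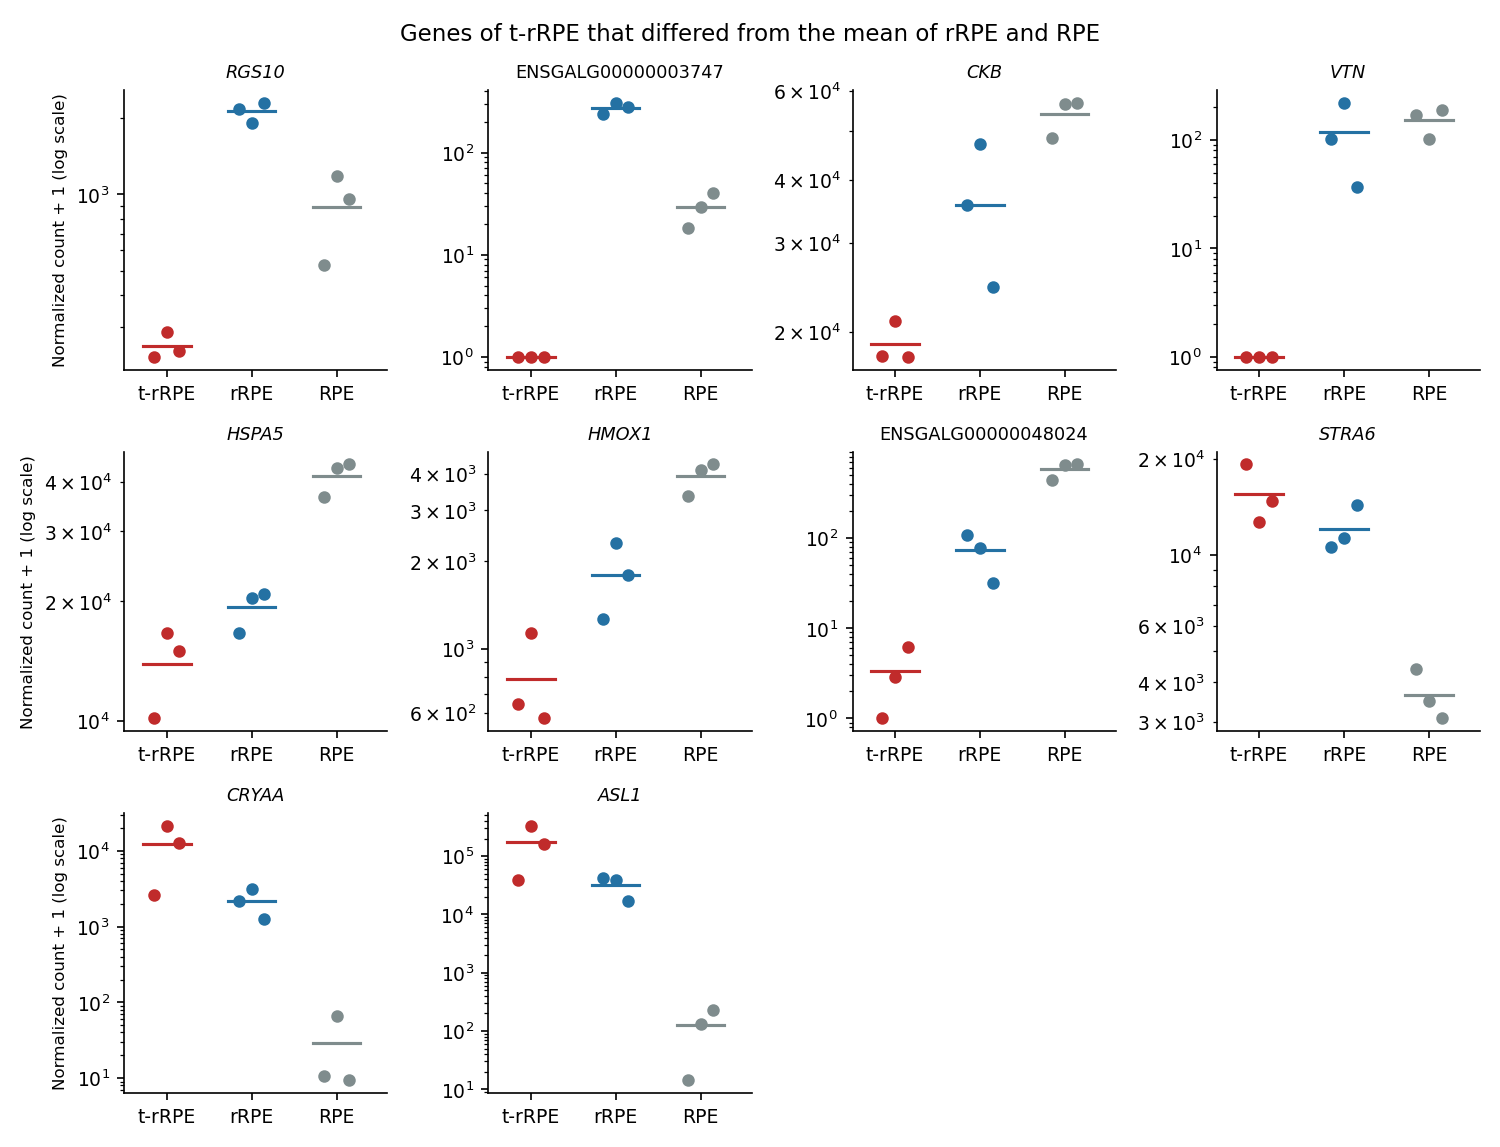
Normalized counts plus 1 (vertical axis, log scale) of 10 genes called in t-rRPE against the mean of rRPE and RPE. Points are libraries and lines group means (n = 3 each). *RGS10* and ENSGALG00000003747 have rRPE above RPE, and the other falls have the rRPE mean between the other means. The rRPE libraries of *VTN* overlap RPE, and the 3 rises have rRPE libraries that overlap t-rRPE.

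DNA replication genes were mostly lower in t-rRPE. Of 24 genes for replication licensing and origin firing, 22 lay lower in t-rRPE than in the mean of rRPE and RPE, 16 of them with an unadjusted p up to 0.05 and 0 higher, where 5.68% of all genes were lower and 4.55% higher at that p. None was called. The same shares of all genes stand behind the counts of the lists that follow. The median difference was -0.81 on the log2 scale, against 0.00 over all genes tested, and lay between -0.95 and -0.68 over the alternative settings. The list's median rRPE minus RPE was -0.65, and 10 of the 24 were near intact, against 50.6% of all genes tested. The lists were written with earlier results of these data known, so their direction is not independent evidence.

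The MCM proteins form the helicase that opens DNA at replication origins. *MCM2* stood at 1198, 1644 and 1542 in t-rRPE, 3036, 3701 and 1913 in rRPE and 3765, 5360.0 and 5072 in RPE. The 3 groups did not overlap, with rRPE between the others. Its difference was -1.32 ± 0.23 (adjusted p = 0.07), with rRPE minus RPE at -0.75. Against RPE alone, t-rRPE was called for *MCM2* (-1.69 ± 0.26, adjusted p = 0.0228), *MCM5* (-2.14 ± 0.41, adjusted p = 0.0472) and *MCM6* (-1.02 ± 0.19, adjusted p = 0.0449). *MCM5* stood at 828, 2762 and 1276 in t-rRPE, 2833, 4039 and 1596 in rRPE and 6483, 6202 and 6172 in RPE, with rRPE replicate 3 inside the range of t-rRPE. *MCM6* stood at 2751, 2446 and 2164 in t-rRPE, 2982, 4014 and 2924 in rRPE and 4772, 4425 and 5704 in RPE, where rRPE lay between the groups without overlap.

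A few licensing genes had a single very low t-rRPE library. *MCM3* stood at 10.9, 750.3 and 521 in t-rRPE, 787, 1108 and 758 in rRPE and 2228, 1782 and 2210.0 in RPE and *CDC6*, which loads the helicase onto origins, at 0, 77.5 and 71.7 in t-rRPE, 117, 140.0 and 68.8 in rRPE and 319, 215 and 312 in RPE. *CDT1*, its partner in loading, stood at 101, 671 and 712 in t-rRPE and *ORC1* at 9.77, 298 and 272. In each of these 4 genes replicate 1 was far under the other two t-rRPE libraries, and none of them was called. The plot of licensing genes by library shows this for replicate 1 and the intermediate place of most rRPE libraries.

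**Figure D4:**
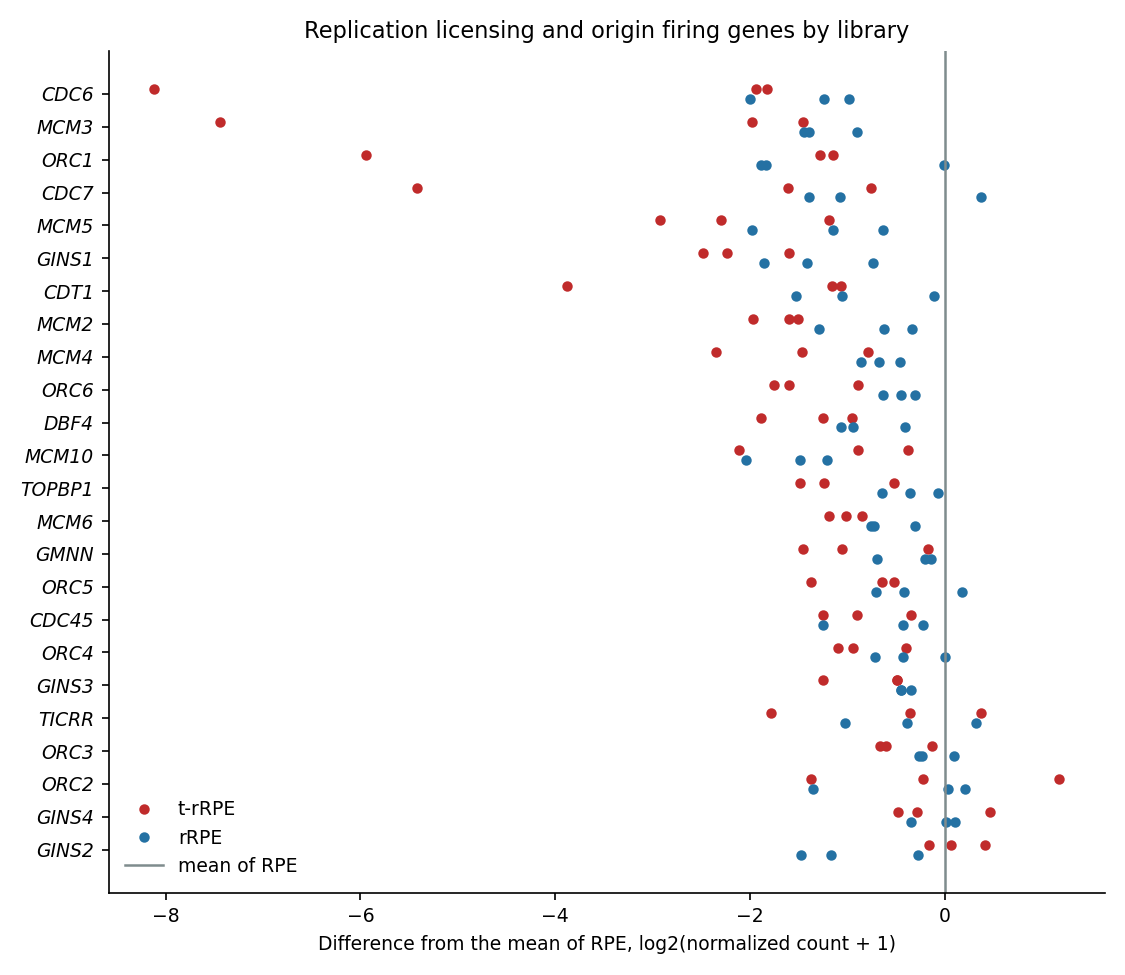
Difference of each t-rRPE library (red) and rRPE library (blue) from the mean of RPE, in log2(normalized count + 1), for the 24 replication licensing and origin firing genes. Genes are ordered by the t-rRPE mean, most t-rRPE points lie left of zero, and t-rRPE replicate 1 gives the far points of *CDC6*, *MCM3* and *ORC1*.

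Genes of the replication fork and of nucleotide supply showed the same order at smaller size. Of 29 measured, 28 lay lower in t-rRPE, 12 with an unadjusted p up to 0.05 and 0 higher, and none was called (median -0.60, rRPE minus RPE -0.43). *PCNA*, the sliding clamp of DNA polymerases, stood at 2267, 3276 and 2961 in t-rRPE, 4491, 5865 and 2825 in rRPE and 7702, 7977 and 6687 in RPE. Its rRPE replicate 3 lay among the t-rRPE libraries and the other rRPE libraries lay between the groups. *RRM2*, a subunit of ribonucleotide reductase, stood at 1339, 4026 and 2041 in t-rRPE, 3402, 3739 and 3067 in rRPE and 7959, 8227 and 7701 in RPE, where t-rRPE replicate 2 exceeded the rRPE libraries. *TK1*, thymidine kinase, stood at 385, 2795 and 509.6 in t-rRPE, so that replicate 2 stood apart from the other two.

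The 1 member of this list with all t-rRPE libraries lowest and rRPE near RPE was *POLA1*, the catalytic subunit of the primase-bound polymerase. It stood at 1203, 817 and 928 in t-rRPE, 1394, 1565 and 2326 in rRPE and 2049, 1736 and 1362 in RPE, with rRPE overlapping RPE (difference -0.81 ± 0.24, adjusted p = 0.287, rRPE minus RPE 0.02). *FEN1*, which trims flaps on the lagging strand, had -0.90 ± 0.20 (adjusted p = 0.161) and rRPE minus RPE of -0.43. *SLBP*, the histone mRNA binding protein, stood at 43.4, 308 and 361 in t-rRPE, 1036, 729 and 365 in rRPE and 1792, 1397 and 1277 in RPE, and its lowest rRPE library lay just above its highest t-rRPE library.

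Among 16 regulators of entry into S phase, 5 were lower in t-rRPE with an unadjusted p up to 0.05 and 0 higher, with no call (median -0.60). *E2F1*, the transcription factor that drives S phase genes, stood at 154, 87.7 and 159 in t-rRPE, 525, 381 and 279 in rRPE and 1286, 660.1 and 765 in RPE. The 3 groups did not overlap, with rRPE between the others. Its difference was -2.15 ± 0.41 (adjusted p = 0.0904), and against RPE alone t-rRPE was called (-2.74 ± 0.48, adjusted p = 0.0343). *SKP2*, which targets cyclin-dependent kinase inhibitors for degradation, was near intact in rRPE, at 2842, 2745 and 2488 in t-rRPE, 4305, 3884 and 3685 in rRPE and 3711, 3759.8 and 4246 in RPE (difference -0.55 ± 0.14, adjusted p = 0.227). *CDK6*, a kinase partner of D-type cyclins, went otherwise, at 3592 to 5926 in t-rRPE, 4270.0 to 5333 in rRPE and 9911 to 12629 in RPE (rRPE minus RPE -1.16, adjusted p = 0.0236). The 27 genes of G2 and mitosis gave a median of -0.29, with 4 lower at that p and 0 higher, and 23 of the 27 were near intact in rRPE, against 50.6% of all genes tested. That median was -0.13 without t-rRPE replicate 1, -0.70 without t-rRPE replicate 2 and -0.09 without t-rRPE replicate 3.

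Genes of growth arrest were more often higher in t-rRPE. Of 25 measured, 17 were higher in t-rRPE, 8 with an unadjusted p up to 0.05, and 2 were lower at that p (median 0.33, rRPE minus RPE 0.33). None was called against the mean of rRPE and RPE. *CDC14A*, a phosphatase that reverses phosphorylation by cyclin-dependent kinases, stood at 4919.8, 4593 and 5075 in t-rRPE, 3395, 2464 and 3287 in rRPE and 2202, 1919 and 2275 in RPE. The groups did not overlap and rRPE lay between the others, at 0.51 from RPE and so just outside the margin. Its difference was 0.94 ± 0.16 (adjusted p = 0.0672) and its rise over RPE alone was called (1.19 ± 0.18, adjusted p = 0.0207). *BTG1*, an antiproliferative cofactor, stood at 46954, 34043 and 40916 in t-rRPE, 33803, 23988 and 29038 in rRPE and 23339, 16757 and 17954 in RPE (rise over RPE 1.07 ± 0.17, adjusted p = 0.0263).

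*SESN3*, a stress-induced inhibitor of growth signalling, was the 1 gene of the list with all t-rRPE libraries highest and rRPE near RPE. It stood at 1156, 777 and 1332 in t-rRPE, 538, 164 and 467 in rRPE and 313, 293 and 460.3 in RPE, with rRPE spread around RPE (difference 1.61 ± 0.42, adjusted p = 0.235, rRPE minus RPE -0.01 with 95% interval -1.08 to 1.06). *GADD45G*, a damage-response gene, stood at 948, 1462 and 2071 in t-rRPE, 1293, 471 and 746 in rRPE and 678, 502 and 417 in RPE, where rRPE replicate 1 overlapped t-rRPE. *BTG2* was high in both injured groups, at 6142, 4682 and 4246 in t-rRPE, 9157, 6519.7 and 5416 in rRPE and 2009, 1732 and 1387 in RPE. *CDKN1A*, which encodes a cyclin-dependent kinase inhibitor, stood at 14.1, 0 and 129 in t-rRPE, 135, 330.1 and 396 in rRPE and 257, 124 and 37.7 in RPE, and t-rRPE overlapped RPE (adjusted p = 0.372).

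Chaperones of the endoplasmic reticulum and of heat shock were mostly lower in t-rRPE and near intact in rRPE. Of 23 measured, 10 were lower with an unadjusted p up to 0.05, where 5.68% of all genes were, and 0 higher, and 1 (*HSPA5*) was called. In 17 of the 23 rRPE was within 0.5 of RPE, against 50.6% of all genes tested and 12 of 13 housekeeping genes. The list's median difference was -0.44, between -0.50 and -0.37 over the alternative settings, and its median rRPE minus RPE was -0.08. *PDIA4*, a protein disulfide isomerase, stood at 8912, 9989 and 10761 in t-rRPE, 14661, 16543 and 13037 in rRPE and 14342, 15317 and 17084 in RPE. The t-rRPE libraries lay under all others, and rRPE overlapped RPE (difference -0.62 ± 0.12, adjusted p = 0.0919, rRPE minus RPE -0.08 with 95% interval -0.39 to 0.22).

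*HSP90B1*, the HSP90 paralog of the endoplasmic reticulum, stood at 34348, 46005 and 47152 in t-rRPE, 60868, 69983 and 52232 in rRPE and 60844, 68589.9 and 66529 in RPE, and *HSPA8*, the constitutive cytosolic HSP70, at 103257, 82681 and 92999.9 in t-rRPE, 110207, 134318 and 113599 in rRPE and 125211, 146453 and 142741 in RPE. In both, the t-rRPE libraries were the lowest, the difference was -0.58 ± 0.13 for *HSP90B1* and -0.47 ± 0.10 for *HSPA8*, and neither passed (adjusted p = 0.161 for each). *HERPUD1*, which acts in the degradation of misfolded proteins, was the fourth gene of the list with all t-rRPE libraries lowest and rRPE near RPE, at 1533, 1371 and 1542 in t-rRPE, 2431, 1690.0 and 1626 in rRPE and 1636, 2559.9 and 2235 in RPE. The list therefore held 4 such genes of 23, against 1.4% of all genes tested.

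Genes of MAPK feedback, which the pathway itself induces and which then restrain it, had rRPE mostly on the far side of RPE. Of 27 measured, 21 were lower in t-rRPE than in the mean of rRPE and RPE. At an unadjusted p up to 0.05, 7 were lower and 0 higher, and none was called. A rise in rRPE alone also makes this difference negative. Against RPE alone, 4 were higher in t-rRPE and 3 lower at that p, and 1 was called, which was lower. The median difference was -0.78 and the median rRPE minus RPE was 0.97, while the median of t-rRPE minus RPE was -0.29. The median difference was -0.48 without t-rRPE replicate 1, -0.32 without t-rRPE replicate 2 and -1.26 without t-rRPE replicate 3. *SPRY2*, an inhibitor of receptor tyrosine kinase signalling, stood at 263, 208 and 484 in t-rRPE, 744, 1691 and 1540.0 in rRPE and 566, 680.5 and 524 in RPE. Its 3 groups did not overlap, with t-rRPE lowest and rRPE highest (difference -1.52 ± 0.37, adjusted p = 0.221). *DUSP7*, a phosphatase of ERK kinases, stood at 1299, 971 and 1857 in t-rRPE, 3193, 3166 and 3244 in rRPE and 1802, 2084 and 1877 in RPE, where t-rRPE replicate 3 reached the RPE libraries (difference -0.90 ± 0.21, adjusted p = 0.196). The fall from RPE was called neither for *SPRY2* (-0.98, adjusted p = 0.396) nor for *DUSP7* (-0.53, adjusted p = 0.404). The difference from the mean of rRPE and RPE was -0.45 for *FGFR1* and -1.58 for *DUSP1*. Their t-rRPE minus RPE was 0.35 for *FGFR1* and 0.10 for *DUSP1*.

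In TGF-beta and BMP signalling, *TGFB3*, which encodes a secreted TGF-beta ligand, was the gene with the lowest p. It stood at 946, 949 and 768 in t-rRPE, 2142, 3493 and 2890.1 in rRPE and 1908, 2045 and 1603 in RPE. The t-rRPE libraries lay below all others and rRPE above RPE. Its difference from the mean of rRPE and RPE was -1.36 ± 0.21 (adjusted p = 0.0529). For *TGFB3*, rRPE minus RPE was 0.60 (95% interval 0.06 to 1.13) and not called (adjusted p = 0.348). The fall of t-rRPE from RPE was -1.06 and not called (adjusted p = 0.0941), while rRPE against t-rRPE was called (1.66 ± 0.24, adjusted p = 0.0464). Of 29 genes of TGF-beta and BMP signalling, 13 lay higher and 16 lower in t-rRPE than in the mean of rRPE and RPE. At an unadjusted p up to 0.05, 5 were higher and 3 lower, and none was called. In 5 of the 29 rRPE was near RPE, and in *ID1* and *NOG* among them all t-rRPE libraries also lay outside the others. *ID1*, a target gene of BMP signalling, stood at 956, 798 and 1191 in t-rRPE, 1568, 2429 and 1256 in rRPE and 1450.1, 2795 and 2985 in RPE (difference -1.02 ± 0.29, adjusted p = 0.27). *NOG*, which encodes the BMP antagonist noggin, lay the other way, at 716, 518 and 817 in t-rRPE, 197, 423 and 414 in rRPE and 262, 306 and 340.4 in RPE (difference 1.10 ± 0.38, adjusted p = 0.345). *ID2* also lay higher in t-rRPE than in the mean of rRPE and RPE (difference 0.50 ± 0.12, adjusted p = 0.196). For *ID2*, rRPE minus RPE was -1.35 (adjusted p = 0.00248) and t-rRPE minus RPE was -0.17 (adjusted p = 0.659).

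The Notch pathway genes *HES4*, *HEY1* and *LFNG* fell in t-rRPE against RPE. Of 16 Notch pathway genes, 3 were lower with an unadjusted p up to 0.05 and 0 higher, with none called, where 5.68% of all genes were lower (median -0.74, rRPE minus RPE -0.96). The median was -0.48 without t-rRPE replicate 2, -0.38 without t-rRPE replicate 3, -0.32 with DESeq2 and -0.33 with edgeR. *HES4*, a transcriptional repressor of the HES family, stood at 99.8, 391 and 485 in t-rRPE, 1654, 1342 and 775 in rRPE and 3412, 1780.2 and 2344 in RPE, with no overlap among the groups (difference -2.67 ± 0.48, adjusted p = 0.0721). *HEY1*, a direct Notch target, stood at 651, 764 and 528 in t-rRPE, 937, 923 and 771 in rRPE and 2053, 2454 and 2796 in RPE and *LFNG*, a glycosyltransferase that modifies Notch, at 2512, 2484 and 2075 in t-rRPE, 2914, 4233 and 2812 in rRPE and 8312, 6046 and 6119 in RPE. Against RPE alone, t-rRPE was called in all 3, by -3.18 ± 0.55 for *HES4* (adjusted p = 0.0343), -1.91 ± 0.26 for *HEY1* (adjusted p = 0.0122) and -1.52 ± 0.21 for *LFNG* (adjusted p = 0.0122). In rRPE, *HES4* stood -1.02, *HEY1* -1.47 and *LFNG* -1.05 from RPE, so that all 3 lay beyond the margin.

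*OTX2*, a transcription factor that maintains RPE fate, was past intact in the rising direction. The rise of t-rRPE over RPE alone was 0.37 on the log2 scale and not called (adjusted p = 0.336). For *OTX2*, rRPE minus RPE was -0.73 (adjusted p = 0.0406). It stood at 19274, 16383 and 18521 in t-rRPE, 9273, 6893 and 9248 in rRPE and 14485, 13268 and 14020.0 in RPE, with t-rRPE above and rRPE below all RPE libraries (difference 0.74 ± 0.13, adjusted p = 0.0672, and rRPE against t-rRPE -1.10 ± 0.15, adjusted p = 0.0289). Of 27 genes of RPE identity and pigment, 18 lay higher and 9 lower, 3 of them higher with an unadjusted p up to 0.05 and 0 lower, where 4.55% of all genes were higher and 5.68% lower (median 0.15). Their median rRPE minus RPE was -0.45, and 8 of the 27 were near intact, against 50.6% of all genes tested. The RPE marker *MITF* was lower in both injured groups than in RPE. It stood at 1548, 2886 and 2095 in t-rRPE, 1441, 1908 and 1210 in rRPE and 3911, 5933 and 5855 in RPE. For *MITF*, t-rRPE minus RPE was -1.29 (adjusted p = 0.0742) and rRPE minus RPE was -1.78 (adjusted p = 0.014). *RDH5*, a retinol dehydrogenase of the visual cycle, was near intact in rRPE, at 14112, 9211 and 8201 in t-rRPE, 5558, 4354 and 9144 in rRPE and 7136, 5426 and 5775 in RPE, with rRPE replicate 3 inside the t-rRPE range (adjusted p = 0.31).

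Of 37 genes of extracellular matrix and basement membrane, 15 lay higher and 22 lower in t-rRPE, 3 higher and 8 lower with an unadjusted p up to 0.05, and 1 (*VTN*) was called (median -0.10). Of 26 genes of retinoid uptake and response, 11 lay higher and 15 lower, 4 higher and 3 lower at that p, and 1 (*STRA6*) was called (median -0.27, 0.12 without t-rRPE replicate 2 and -0.58 without t-rRPE replicate 3). A member of each list was at or near 0 in every t-rRPE library and was not called by limma. *POSTN*, a matricellular protein, stood at 0, 0 and 3.91 in t-rRPE, 122, 71.0 and 19.5 in rRPE and 165, 124 and 69.2 in RPE, and *CYP26B1*, which degrades retinoic acid, stood at 0 in all 3 libraries of t-rRPE, 72.1, 55.4 and 80.1 in rRPE and 21.1, 103 and 37.7 in RPE. The mean of the 6 other libraries was at least 24.3-fold above the floor for *POSTN* and at least 15.8-fold for *CYP26B1*, and neither was called by limma (adjusted p = 0.0936 for *POSTN* and 0.0721 for *CYP26B1*). DESeq2 called *CYP26B1* (adjusted p = 8.86e-05) and put its rRPE minus RPE at 0.36, near intact. The edgeR test with TMM did not call *CYP26B1* (adjusted p = 0.204). *SNAI1*, a transcription factor of epithelial to mesenchymal transition, stood at 493, 519.8 and 255 in t-rRPE, 795, 1630.5 and 1098 in rRPE and 1537, 2866 and 3197 in RPE. The t-rRPE libraries lay below all others, and rRPE overlapped RPE only in that rRPE replicate 2 exceeded RPE replicate 1. For *SNAI1*, rRPE minus RPE was -1.10 (adjusted p = 0.277), beyond the margin of 0.5, so that rRPE stood part of the way. The fall of t-rRPE from RPE was called (-2.58 ± 0.40, adjusted p = 0.0226). The difference of t-rRPE from the mean of rRPE and RPE was -2.03 ± 0.35 (adjusted p = 0.0672).

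In all, 21 genes held at most 3 reads in every t-rRPE library and more than 3 in each of the 6 others, and 7 genes showed the reverse. Of the 21, 3 were called and 10 had rRPE near RPE (50.6% of all genes). The 21 were chosen by the same values that the test uses, so nothing is read from the number called. Among the named ones with rRPE near RPE, *CCDC157*, a coiled-coil protein, stood at 0, 0 and 3.91 in t-rRPE, 243, 33.4 and 45.2 in rRPE and 207, 32.1 and 53.8 in RPE, and *PRKCB*, a protein kinase C, at 0 in all 3 libraries of t-rRPE, 66.0, 7.31 and 34.9 in rRPE and 12.5, 72.7 and 6.15 in RPE. The 95% interval of rRPE minus RPE was -2.97 to 3.00 for *CCDC157* and -2.55 to 3.54 for *PRKCB*. Intervals this wide do not place rRPE near or away from intact. *PAPPA*, a protease that cleaves insulin-like growth factor binding proteins, was the reverse case, at 13.0, 14.9 and 40.4 in t-rRPE and at most 3 reads in every other library.

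Markers of the mesenchyme around the eye were mostly lower in t-rRPE, as were *VTN* and *SNAI1*, and *POSTN* is itself one of them. Of 23 such markers, 10 were lower in t-rRPE with an unadjusted p up to 0.05 and 1 higher, with none called. The median difference was -1.73, and -0.67 without t-rRPE replicate 1 and -0.93 with DESeq2, and the median rRPE minus RPE was -1.50. Their summed level was 10268 to 13234 in t-rRPE, 12561 to 15357 in rRPE and 14468 to 19835 in RPE. Of the defining markers, *TWIST1* stood at 0, 113 and 0 in t-rRPE, 60.9, 84.6 and 32.9 in rRPE and 66.3, 78.2 and 116 in RPE and *PRRX1* at 0, 1.87 and 0 in t-rRPE, 3.05, 11.5 and 70.8 in rRPE and 0, 50.8 and 47.6 in RPE, with t-rRPE overlapping RPE in both, and *FOXC1* was under 10 throughout. Of the 19 endothelial markers 6 were lower at the same p and 0 higher (median -0.99, and -0.57 without t-rRPE replicate 1). The part of captured neighbouring cells in the matrix and migration genes was not tested. By contrast the summed level of 13 housekeeping genes was 827661 to 1067950.0 in t-rRPE, 883717 to 1027930.0 in rRPE and 899086 to 974326 in RPE, with a median difference of -0.07.

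**Figure D5:**
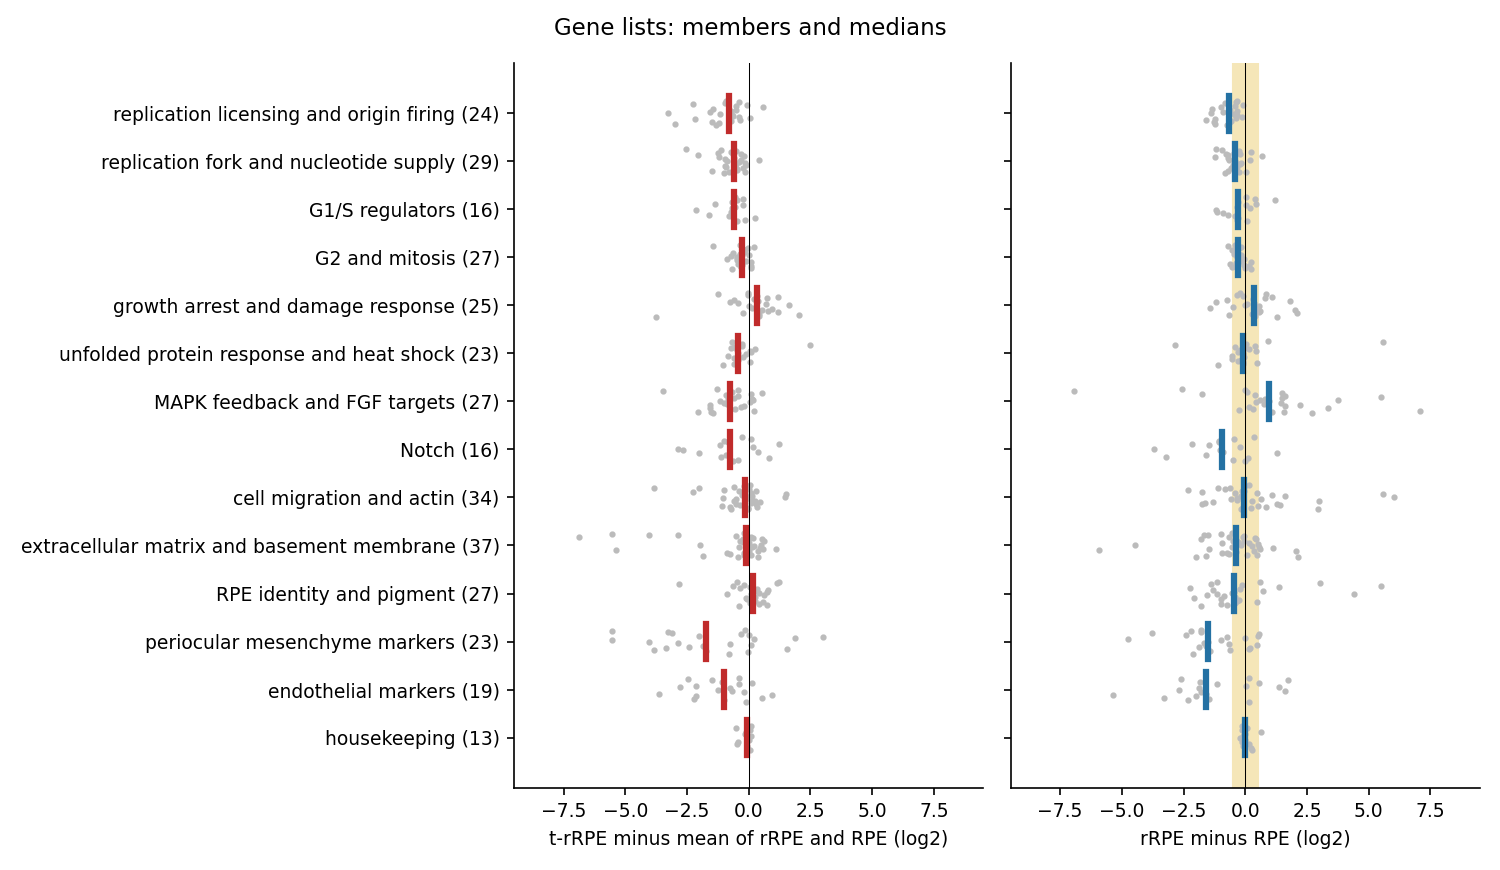
Difference of t-rRPE from the mean of rRPE and RPE (left, log2) and rRPE minus RPE (right, log2) for members of 14 gene lists. Grey points are genes, bars are list medians, the number of genes tested is in parentheses and the band marks rRPE within 0.5 of RPE. The 4 cell cycle lists, the chaperones, MAPK feedback and Notch have medians below zero on the left, and of these lists MAPK feedback has its median above zero on the right.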

How the data were processed

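Laser-captured RPE of 9 chicken embryos was sequenced from oligo(dT)-primed, amplified cDNA as unstranded single-end reads. The authors trimmed reads with Trim Galore 0.6.1 and cutadapt 1.18, aligned them to GRCg6a with STAR 2.7.3, counted them per gene with StringTie 2.0.4 and normalized them with DESeq2 1.22.2. The deposited table gives the resulting signal, a normalized count, per gene and library. Dividing by the smallest value of a library gave whole numbers (tolerance 0.001) and so recovered the reads, 1 of which was worth 0.768 to 1.303. Reads of overlapping antisense genes cannot be told apart without strand.

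Genes whose values summed to 20 or more were analysed as log2(value + 1), a scale that understates changes of low genes, and fitted with limma 3.58.1 (trend) in R 4.3.3 as group means of all 9 libraries, with Benjamini-Hochberg adjustment over 16535 genes. Differences of t-rRPE from the mean of rRPE and RPE, and of rRPE from RPE, t-rRPE from RPE and rRPE from t-rRPE, were taken from this fit. The main thresholds follow the study's methods. A group with at most 3 reads in every library was set to 3 reads of its largest step, and folds against it are lower bounds. Genes and 31 gene lists were chosen with earlier results of these data known. Genes were named where they were called, had a symbol and a mean of at least 10, and all t-rRPE libraries lay outside the 6 others (the 15 largest changes in each direction), where called genes were near intact (10 in each direction), or where list members were called or led a list described. Other genes named were chosen after their values were seen. Alternatives used edgeR 4.0.16 and DESeq2 1.42.0 (unshrunken) on recovered reads, other offsets, filters and scalings, a replicate block, and each library left out with the filter reapplied. The fits were tested on simulated data. Replicate numbers did not pair the samples. A few genes are not reported here. Columns of other samples numbered 0. Intervals from the fit are 95%. Chromosomes came from 10855 genes matched by symbol to the GRCg7b annotation, from which no coordinates were used.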

Additional observations from a re-analysis of the deposited data

How the results depend on the processing

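The direction of the difference of t-rRPE from the mean of rRPE and RPE was the same under every alternative run for every gene whose difference is given, but the counts depended on the setting. Against the 11 called genes (3 higher, 8 lower), limma called 0 with an offset of 0.5, 3 with an offset of 5 (2 higher, 1 lower), 13 with a mean normalized count of at least 10 (10 lower), 15 after quantile normalization (12 lower) and 41 without the trend (13 higher, 28 lower), of which 5 were among the 11. The edgeR test called 3 with TMM and 3 with the authors' size factors (2 higher, 1 lower in each), and DESeq2 called 301 (141 higher, 160 lower). Upper-quartile rescaling, no filter on low values and the adjusted p alone gave 11. Leaving out single libraries gave 0 to 16 genes (0 to 3 higher, 0 to 15 lower). Called genes near intact numbered 0, and 72 with DESeq2, 9 without the trend, 1 with a mean of at least 10, 1 after quantile normalization, 2 with a margin of 1, 0 with the 95% interval wholly within 1, and 0 to 3 with single libraries left out. Of genes called against RPE, 8 were near intact, and by alternatives chosen after seeing the data 6 with an offset of 0.5, 9 with an offset of 5, 11 after quantile normalization, 67 with DESeq2, 2 with edgeR under each size factor, 27 with a margin of 1, 8 with the interval wholly within 1, and 0 to 23 with single libraries left out. The cause of these shifts was not tested. A replicate block called 8 genes (3 higher, 5 lower), 6 of them among the 11, and left 0 of the genes called against RPE near intact. Deviations of same-numbered libraries correlated at -0.031 to 0.06, so the numbers share only a label, and not every library correlated best with its own number. Depth bears on genes with few reads, where 3 reads in a t-rRPE library correspond to at most 3.91 normalized counts and lower levels cannot be told from absence.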

Other observations

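A few other genes of pathways outside the main groups had all t-rRPE libraries on one side of the other 6 with rRPE near RPE, and none was called. *MVK*, mevalonate kinase of cholesterol synthesis, stood at 5526, 4721 and 4315 in t-rRPE, 4081, 4045 and 3519 in rRPE and 3751, 3359 and 3612 in RPE (difference 0.38 ± 0.14, adjusted p = 0.39). *FZD4*, a receptor for WNT ligands and norrin, stood at 679, 383 and 581 in t-rRPE, 989.8, 1169 and 731 in rRPE and 969.6, 1079 and 1384 in RPE (difference -0.96 ± 0.28, adjusted p = 0.287). *MEIS2*, a homeodomain factor of the developing eye, stood at 6424, 8763 and 6331 in t-rRPE, 5623, 5087 and 3526 in rRPE and 5829, 5938 and 5539.6 in RPE (difference 0.45 ± 0.17, adjusted p = 0.394). *CYP1B1*, a cytochrome P450 that oxidizes retinoids, stood at 21735, 6366 and 27839 in t-rRPE, 31551, 47947 and 56401 in rRPE and 37409, 36778 and 34713 in RPE, with t-rRPE replicate 2 far under the other libraries (difference -1.35 ± 0.37, adjusted p = 0.254).

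*TRIL*, a modulator of toll-like receptor signalling, stood at 0, 0 and 50.8 in t-rRPE, 379.7, 190.1 and 230.0 in rRPE and 113, 472 and 525 in RPE, with all t-rRPE libraries below the others.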
